A study of Mus musculus with 4 samples.

Results

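Long intergenic non-coding RNAs (lincRNAs) are transcripts from loci between protein-coding genes that show no evidence of coding a protein, and the class includes some of the most abundant RNAs of the nucleus. The lincRNAs examined here were those expressed in mouse tumour-associated macrophages. A gene was included when the authors' gene annotation gave its biotype as lincRNA and when it had a raw count of at least 10 in at least 2 of the 4 libraries. Of 54532 genes in the table, 5559 were lincRNAs, and 293 of these (5.27%) met the rule. A further 939 lincRNAs had a count but fell under the rule, and 4327 had no count in any library. The members were thus selected on the raw counts themselves, so their being expressed is not a result.

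The macrophages were sorted from glioblastoma (GBM) xenografts as CD45+/Gr1-/CD11b+/DAPI- cells, that is, living white blood cells of the myeloid lineage without the Gr1 antigen of granulocytes and inflammatory monocytes. Of the 4 libraries, 2 were labelled MK-8931 and 2 were labelled control. MK-8931 is verubecestat, a small molecule that inhibits the protease BACE1. Both groups carried a tumour, their strain was labelled only as GBM mice, and the protocol names vehicle as the control. The labels' protocol gives 3 days of treatment but speaks of glioma stem cells (GSCs), while the cell type entry and the design text name sorted macrophages, so the labels leave unclear which cells received the compound. The sources used here do not give the host strain behind that label, the age of the mice or the number of animals per library.

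Most lincRNAs have no known function, and those with one act in several ways. Malat1 and Neat1 stay in the nucleus, where Neat1 builds the bodies called paraspeckles. Xist coats and silences one X chromosome in female cells. Others serve as hosts from which microRNAs (miRNAs) or small nucleolar RNAs (snoRNAs) are cut. In macrophages, several lincRNAs are induced with inflammatory genes, and lincRNA-Cox2 is the best known of them.

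A single locus on chromosome 19 carried both lincRNAs that passed the test, so the promoters of that locus are shown first. The windows run from 250 bases before to 50 bases after the annotated start, from RefSeq on build GRCm38.p6. Capitals mark matches to any of 6 motifs that were searched on both strands. The TATA box was searched as TATAAA and the CCAAT box by its own letters. The motif of AP-1 was TGACTCA, that of NF-kB was GGGACTTTC and that of C/EBP was TTGCGCAA. The ETS family, which includes PU.1 of macrophages, was searched as GGAAGT. The Mirt1 window is chr19:53464747-53465046 on the minus strand and the 4833407H14Rik window is chr19:53460372-53460671 on the plus strand.
Mirt1: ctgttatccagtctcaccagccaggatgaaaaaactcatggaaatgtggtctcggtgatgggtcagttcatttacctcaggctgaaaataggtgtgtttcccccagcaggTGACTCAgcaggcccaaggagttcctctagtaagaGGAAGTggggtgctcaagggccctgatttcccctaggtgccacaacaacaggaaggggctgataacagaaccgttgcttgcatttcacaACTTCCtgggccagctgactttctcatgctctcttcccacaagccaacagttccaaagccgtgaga
4833407H14Rik: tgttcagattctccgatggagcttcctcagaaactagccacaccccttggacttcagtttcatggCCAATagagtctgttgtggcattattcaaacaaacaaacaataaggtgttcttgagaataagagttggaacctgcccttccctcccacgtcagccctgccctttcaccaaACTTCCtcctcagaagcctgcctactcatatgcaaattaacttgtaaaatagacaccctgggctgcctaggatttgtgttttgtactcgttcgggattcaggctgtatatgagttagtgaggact
The Mirt1 window held TGACTCA with its first base at -140 relative to the start, GGAAGT at -105, and GGAAGT on the opposite strand at -16. The 4833407H14Rik window held CCAAT at -185 and GGAAGT on the opposite strand at -75. Of 27025 mouse promoter windows of the same length, 5.17% held TGACTCA, 24.1% held GGAAGT, 37.9% held CCAAT, 14.2% held TATAAA, 0.344% held GGGACTTTC and 0.185% held TTGCGCAA. No motif match overlapped another in these windows, and a match is a description of the letters only.

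Libraries held 19325817 and 18257930 counts in MK-8931, against 18389023 and 20179875 counts in control. All 10 macrophage markers checked were expressed, with a summed level of 10343 and 10485 CPM in MK-8931 and of 11396 and 14372 CPM in control. Neuronal markers summed to under 1 CPM in every library, with Snap25 and Syt1 at 0. Neutrophil markers differed between the groups, with 537 and 892 CPM in MK-8931 against 85.9 and 84.7 CPM in control. Of 13 neutrophil markers listed, 8 were tested and 7 were called higher in MK-8931. Elane was at 0 in all 4 libraries, and Ly6g, Ngp, Camp and Mpo were under 1 CPM in each. Monocyte markers, of which 4 were tested and 2 were called higher, summed to 257 and 258 CPM in MK-8931 against 125 and 65.9 CPM in control. Red cell and platelet markers, of which 3 were tested and 2 were called higher, summed to 332 and 428 CPM in MK-8931 against 164 and 170.1 CPM in control. Most of that sum was Pf4, with 298 and 387 CPM in MK-8931 against 157 and 167 CPM in control. Ppbp followed, with 32.6 and 40.4 CPM in MK-8931 against 6.68 and 1.48 CPM in control. Itga2b overlapped between the groups. The red cell genes Hbb-bs and Hba-a1 were at most 0.154 CPM in every library. Of the 10 macrophage markers, 1 was called higher. Here CPM are counts scaled to a common library size with the TMM method. Levels of an RNA in a bulk sample cannot tell fewer cells of a type from less RNA per cell. Libraries of 1 group are not said to come from separate animals, so p-values measure the spread between these libraries only.

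Mirt1 (ENSMUSG00000097636) was the lincRNA that differed most between the groups. The gene lies at chr19:53441212-53464796 on the minus strand of GRCm38, has up to 10 exons, and is named in the file as myocardial infarction associated transcript 1. Mirt1 had 61 and 91 counts in the MK-8931 libraries, against 0 and 0 counts in the control libraries. These are 3.13 and 4.95 CPM in MK-8931 and 0 CPM in control. Both MK-8931 libraries were above the floor of 3 counts and no read was counted in either control. The mean of the MK-8931 libraries, 4.04 CPM, was at least 25.7-fold the mean floor of the controls, 0.157 CPM. Mirt1 rose past the threshold in edgeR's quasi-likelihood test (adjusted p = 0.00848). Its fitted log2 fold change of 9.26 (SE 1.07) depends on the prior count because the controls were at 0, and it is no bound. Its adjusted p lay between 3.70e-13 and 0.0249 over all alternative settings in which it was tested.

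4833407H14Rik (ENSMUSG00000097779), named only by its clone, rose as well. It has 2 exons at chr19:53460631-53462723 on the plus strand. Its 4 libraries held 63 and 50 counts in MK-8931, against 4 and 2 counts in control. Its levels were 3.23 and 2.72 CPM in MK-8931 and 0.215 and 0.102 CPM in control, so the groups were far apart, although both controls lay near the floor of 3 counts. The log2 fold change was 4.18 (SE 0.71), with an adjusted p of 0.0349 in edgeR's test. The call was lost with limma-voom (adjusted p = 0.103) and without MK-8931 replicate 1 (adjusted p = 0.0777), and over all alternatives the adjusted p ranged from 2.99e-05 to 0.103.

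The 2 genes cannot be taken as independent measurements. 4833407H14Rik lies inside the gene body of Mirt1 on the opposite strand, and 1008 exonic bases belong to both genes. These shared bases are 67.5% of the exonic bases of 4833407H14Rik and 11.8% of those of Mirt1. Without a statement that the counting used strand, reads from the shared bases cannot be told apart. RefSeq lists 4833407H14Rik as a gene and also as a synonym of Mirt1. Summed to a single gene, which was tried after the values had been seen, the locus had 124 and 141 counts in MK-8931 against 4 and 2 counts in control, with a log2 fold change of 5.42 (SE 0.52) and an adjusted p of 0.00171 in edgeR's test. Both genes met the count rule through the MK-8931 libraries alone, so their counts had to differ, and their number supports nothing by itself. The called neutrophil, monocyte and platelet markers were higher in the same 2 libraries, and their part in the Mirt1 locus was not tested.

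**Figure D1:**
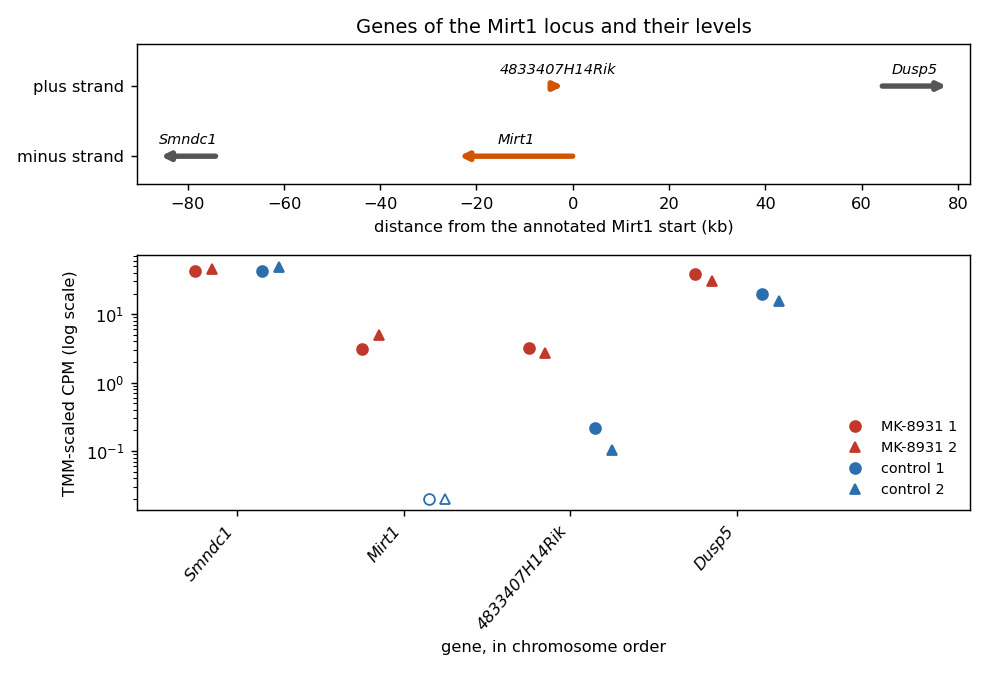
Upper panel: positions and strands of Mirt1, 4833407H14Rik and the 2 flanking protein-coding genes, as distance from the annotated Mirt1 start in kb, with lincRNAs in orange. Lower panel: TMM-scaled CPM of each gene on a log axis, 1 point per library, MK-8931 in red and left of control in blue. Open symbols stand for a count of 0 and are drawn at the bottom of the axis. Both orange genes sit above the controls in both MK-8931 libraries, and the 4 points of Smndc1 lie together.

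The protein-coding genes on either side did not pass the threshold. Smndc1, which encodes a splicing factor, lies 50639 bases from Mirt1 and had 829 and 827 counts in MK-8931 against 803 and 953 counts in control (log2 fold change -0.07, adjusted p = 0.930 in edgeR's test). Dusp5, which encodes a phosphatase that inactivates the kinase ERK in the nucleus, lies 66386 bases from 4833407H14Rik. Dusp5 had 752 and 553 counts in MK-8931 against 362 and 308 counts in control (log2 fold change 0.96, SE 0.20, adjusted p = 0.0680). Both of its MK-8931 values were above both controls, short of the threshold.

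Across all lincRNAs, few differed. Of the 293 members, 284 had enough counts to be tested, and 2 of them (0.704%) were higher in MK-8931 at an adjusted p under 0.05, beside 0.861% of all 13932 genes tested. No lincRNA was called lower in MK-8931 at that threshold, beside 0.136% of all genes, and in either direction the share over all genes was 0.998%. The count of lincRNAs called lower was also 0 with DESeq2 and with limma-voom. At an unadjusted p under 0.05, 17 lincRNAs were higher (5.99%, beside 6.53% of all genes) and 4 were lower (1.41%, beside 4.25% of all genes). The MK-8931 and control libraries did not overlap for 110 lincRNAs (38.7%, beside 41.2% of all genes). Apart from the lower lincRNAs at an unadjusted p, these shares lie near those of all genes. Part of the lack of overlap was fixed by the count rule. Of the 293 members, 18 met it through the MK-8931 libraries alone and 13 through the controls alone.

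The fitted fold changes of the lincRNAs were centred near 0. There were 160 positive and 124 negative log2 fold changes, with a median of 0.09 and quartiles of -0.38 and 0.61. Over all genes tested the median was -0.00, with quartiles of -0.19 and 0.22. The wider quartiles of the lincRNAs stood beside low levels: their median level over the 4 libraries was 1.26 CPM, 122 of the 293 were under 1 CPM, and 23 were at 10 CPM or more. The median lincRNA log2 fold change was 0.22 without control replicate 1, -0.01 without control replicate 2 and -0.04 without MK-8931 replicate 1, so its sign rests on single libraries.

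**Figure D2:**
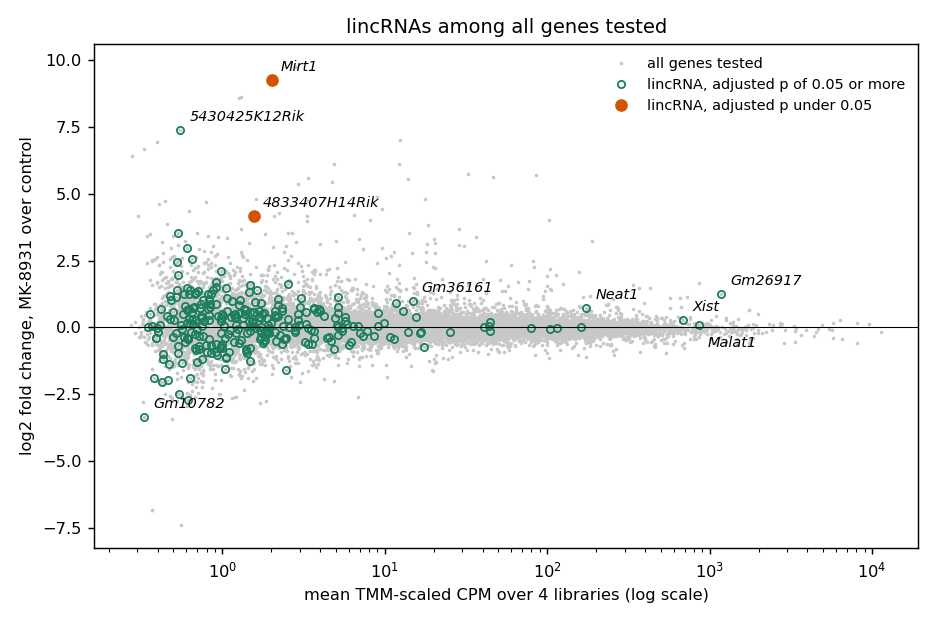
Fitted log2 fold change, MK-8931 over control, against the mean TMM-scaled CPM over the 4 libraries on a log axis. Grey points are all 13932 genes tested, green circles are lincRNAs that did not pass the threshold, and the 2 orange points are Mirt1 and 4833407H14Rik. The lincRNAs spread most at the left, where levels are under 1 CPM.

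Among the lincRNAs that did not pass, the 5 with the smallest p in each direction are given as values. They were picked by p from the same counts, so a lack of overlap in them is no further result. Gm36161 had 329 and 420 counts in MK-8931 against 182 and 195 counts in control (log2 fold change 1.01, SE 0.22, adjusted p = 0.0879 in edgeR's test). Both MK-8931 values lay above both controls, but 68.9% of its 50-base stretches also occur in transcripts of other genes, most in Gm21188, so its reads may have been split with a copy. It passed the threshold with DESeq2, with no filter on low counts and with the replicate block. Over the alternatives with all 4 libraries its adjusted p ranged from 0.00326 to 0.103. Its log2 fold change ranged from 0.76 to 1.20 over the libraries left out. 5430425K12Rik had 26 and 16 counts in MK-8931 against 0 and 0 counts in control. Its mean in MK-8931 was thus at least 7.0-fold the mean control floor of 3 counts per library. Its adjusted p was 0.110 in edgeR's test. Over the alternatives with all 4 libraries that gave one, the adjusted p ranged from 0.00674 to 0.121 (DESeq2 gave none). Like Mirt1, it was not seen in either control, and it met the count rule through the MK-8931 libraries alone.

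Gm34084 had 53 and 92 counts in MK-8931 against 26 and 21 counts in control (log2 fold change 1.64, SE 0.49, adjusted p = 0.221). Dubr, described in differentiating mouse muscle cells, had 293 and 304 counts in MK-8931 against 184 and 206 counts in control (log2 fold change 0.63, SE 0.21, adjusted p = 0.276). The MK-8931 libraries of both lay above their controls. The last of the 5 higher ones was Neat1, described with the nuclear RNAs.

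In the lower direction, Gm26813 had 32 and 15 counts in MK-8931 against 74 and 67 counts in control (log2 fold change -1.58, SE 0.49, adjusted p = 0.242). It ends 1525 bases from Fzd7, a Wnt receptor gene on the other strand. The remaining 4 were rarer. Gm43351 had 3 and 3 counts in MK-8931 against 12 and 29 counts in control, with an adjusted p of 0.336. C030034L19Rik had 2 and 4 counts in MK-8931 against 21 and 14 counts in control, with an adjusted p of 0.397. All 4 MK-8931 values of these genes were at or near the floor. Gm10782 had 0 and 2 counts in MK-8931 against 12 and 11 counts in control (adjusted p = 0.419), and AC163032.1 had 9 and 11 counts in MK-8931 against 33 and 26 counts in control (adjusted p = 0.491). In each of these 5 lincRNAs, both MK-8931 libraries were below both controls. For Gm43351, C030034L19Rik and Gm10782 the count rule fixed this, since only the controls reached 10 counts.

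**Figure D3:**
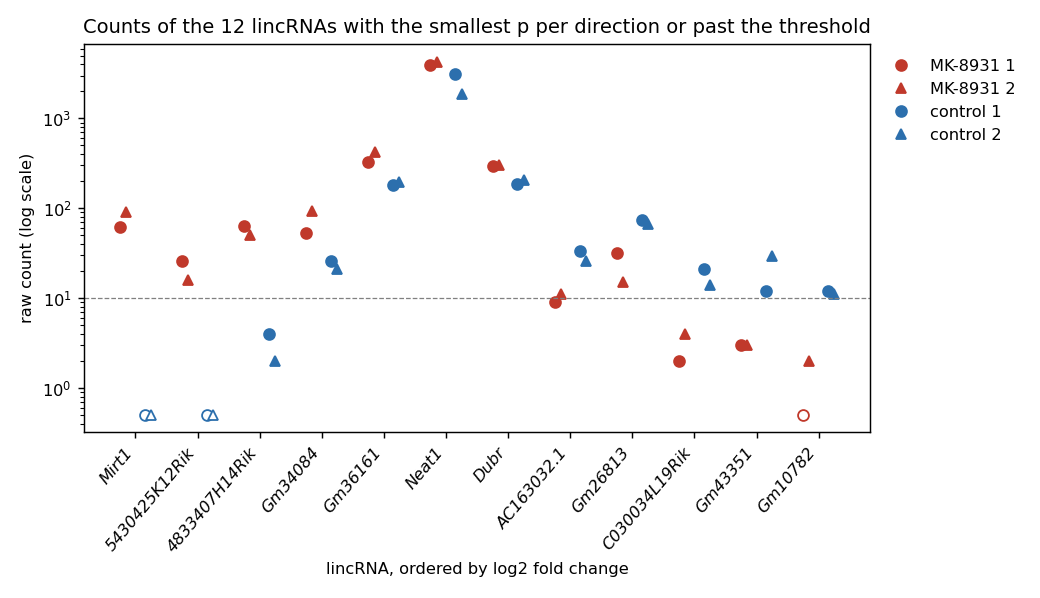
Raw counts on a log axis of the 2 lincRNAs past the threshold and of 10 that missed it, the 5 of lowest p among higher and the 5 among lower ones, ordered by log2 fold change, 1 point per library, MK-8931 in red and left of control in blue. Open symbols stand for a count of 0 and are drawn below 1, and the dashed line marks the count of 10 used to choose members. The groups do not overlap in any of the 12, beside 41.2% of all genes tested without overlap. The 12 were picked by p from these same counts, so their separation is no further result. The count rule fixed it where one group is wholly under the line and the other on or above it.

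The authors' deposited table gives its own fold changes for all 293 lincRNAs. At an adjusted p under 0.05 it holds 4 lincRNAs, all higher in MK-8931, beside 336 of 22381 genes with a value. In the authors' deposited table, Mirt1 has a log2 fold change of 8.70 (adjusted p = 1.07e-05) and 4833407H14Rik one of 4.23 (adjusted p = 0.00106). The authors' deposited table further gives 5430425K12Rik a log2 fold change of 6.83 (adjusted p = 0.0235) and Gm36161 one of 1.00 (adjusted p = 0.0354).

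Reads from lincRNAs were concentrated in a few genes, and those genes separated the controls from each other more than the groups. The 293 lincRNAs together took 0.524% and 0.448% of counts in MK-8931, against 0.485% and 0.222% in control. The means were 0.486 ± 0.0538% in MK-8931 and 0.354 ± 0.186% in control (SD, n = 2 each), a difference of 0.132 percentage points that did not pass an exact two-sided permutation test (p = 0.667, where 0.333 is the smallest value that 2 against 2 allows). Without control replicate 2 the difference was 9.28e-04 percentage points. Without Gm26917, the lincRNA with the most reads, the difference was 0.0348 percentage points (exact p = 1.0), and without Gm26917, Malat1 and Xist it was 0.0150 (exact p = 0.667).

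Gm26917, Malat1 and Xist showed the control gap most plainly. Gm26917 had 1722 and 1606 CPM in MK-8931, against 1212 and 190.0 CPM in control (log2 fold change 1.25, SE 1.00, adjusted p = 0.788 in edgeR's test). Its low value in control replicate 2 stood alone. Without control replicate 1, which leaves 1 control library, the log2 fold change was 3.12. Over the alternatives with all 4 libraries the adjusted p of Gm26917 ranged from 0.280 to 0.934. Gm26917 lies at chr17:39843013-39846341 on the plus strand, 12 bases from an annotated ribosomal RNA gene, CT010467.1, which RefSeq overlaps with its 18S gene Rn18s-rs5. That ribosomal gene went the other way, with 50603 and 52617 counts in MK-8931 against 79798 and 71277 counts in control (log2 fold change -0.54, adjusted p = 0.135). The part of ribosomal RNA in the Gm26917 counts was not tested.

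Malat1, an abundant RNA of nuclear speckles, had 1066 and 693 CPM in MK-8931, against 1211 and 445 CPM in control (log2 fold change 0.09, SE 0.41, adjusted p = 0.972). Its highest and its lowest value were both controls. The fitted log2 fold change was 0.98 without control replicate 1, -0.46 without control replicate 2 and -0.26 without MK-8931 replicate 1. Xist had 873 and 635 CPM in MK-8931, against 867 and 379 CPM in control (log2 fold change 0.28, SE 0.34, adjusted p = 0.860). It too was lowest in control replicate 2. Its log2 fold change was 0.98 when control replicate 1 was left out and -0.20 when control replicate 2 was left out. Of its 50-base stretches, 11.8% occur in other transcripts, most in Tsix, its antisense partner, and without strand those reads cannot be told apart. Neat1 had 199 and 233 CPM in MK-8931, against 167 and 96.4 CPM in control (log2 fold change 0.72, SE 0.23, adjusted p = 0.263). Neat1 passed with no filter on low counts (log2 fold change 0.70), and its log2 fold change without control replicate 1 was 1.16. Over the alternatives with all 4 libraries its adjusted p ranged from 3.26e-04 to 0.454.

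Promoters were also to be shown for the 3 most abundant lincRNAs. Those of Malat1 and Xist are given as the same RefSeq windows of GRCm38.p6, with the same capitals. Gm26917, the most abundant, had no RefSeq entry by its symbol. They are chr19:5802623-5802922 and chrX:103483184-103483483, both on the minus strand.
Malat1: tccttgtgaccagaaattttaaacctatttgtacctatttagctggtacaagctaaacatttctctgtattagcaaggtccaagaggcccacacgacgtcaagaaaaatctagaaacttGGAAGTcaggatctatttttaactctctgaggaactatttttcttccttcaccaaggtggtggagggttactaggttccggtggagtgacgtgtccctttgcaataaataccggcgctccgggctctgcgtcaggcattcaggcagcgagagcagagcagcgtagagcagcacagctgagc
Xist: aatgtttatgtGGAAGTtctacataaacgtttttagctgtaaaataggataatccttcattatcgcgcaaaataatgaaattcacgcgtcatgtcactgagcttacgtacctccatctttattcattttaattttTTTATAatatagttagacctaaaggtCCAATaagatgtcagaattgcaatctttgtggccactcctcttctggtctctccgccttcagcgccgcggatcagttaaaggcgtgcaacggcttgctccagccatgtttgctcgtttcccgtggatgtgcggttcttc
Malat1 held GGAAGT at -131 relative to the start. Xist held GGAAGT at -239, TATAAA on the opposite strand at -115 and CCAAT at -89. The RefSeq promoter table was matched by symbol for 134 of the 293 lincRNAs.

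**Figure D4:**
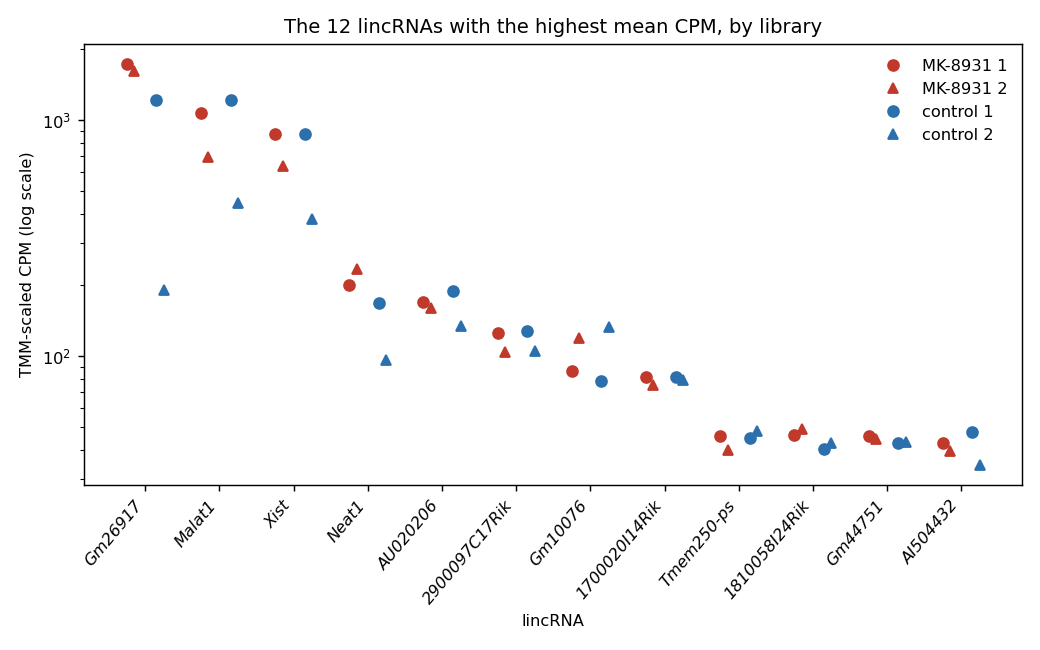
TMM-scaled CPM on a log axis of the 12 lincRNAs with the highest mean CPM, 1 point per library, MK-8931 in red and left of control in blue. The 2 controls lie far apart for Gm26917, Malat1 and Xist, whereas the 4 points of 1700020I14Rik and of Gm44751 lie close together.

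The remaining abundant lincRNAs spread less across the libraries. AU020206 had 169 and 159 CPM in MK-8931 against 188 and 133 CPM in control. The mouse counterpart of NORAD, 2900097C17Rik, which binds Pumilio proteins, had 125 and 104 CPM in MK-8931 against 127 and 105 CPM in control. In 2900097C17Rik, 39.5% of 50-base stretches also occur in other transcripts, most in Gm7292. 1700020I14Rik had 81.7 and 75.5 CPM in MK-8931 against 81.0 and 79.0 CPM in control, the narrowest spread among the 10 with most reads. The groups overlapped for each of these genes. Gm10076 had 86.6 and 118 CPM in MK-8931 against 78.4 and 133 CPM in control, and 69.9% of its 50-base stretches are shared, most with the ribosomal protein gene Rpl41. RefSeq lists Gm10076 as a pseudogene, and it lists Tmem250-ps and 1810058I24Rik as protein-coding. Tmem250-ps had 45.7 and 40.0 CPM in MK-8931 against 44.8 and 48.2 CPM in control, and 1810058I24Rik had 46.2 and 49.0 CPM in MK-8931 against 40.2 and 42.5 CPM in control.

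On a scale per gene length, the order changed. FPKM values, which are counts scaled to gene length and library size, put Gm26917 first (513 and 478 FPKM in MK-8931, 362 and 57.2 FPKM in control) and Gm10076 next (224 and 306 FPKM in MK-8931, 203 and 347 FPKM in control). Malat1 followed with 152 and 98.4 FPKM in MK-8931 and 172 and 63.8 FPKM in control. In control the values of Gm26917 and Gm10076 overlapped, so their order there does not exceed their spread, while in MK-8931 Gm26917 was higher in both libraries. Gm26880 and AI427809 were among the 10 highest by FPKM but not by CPM. Gm26880 had 3.79 and 16.1 FPKM in MK-8931 and 26.7 and 6.18 FPKM in control, a scatter within both groups wider than the difference between them, and 47.4% of its 50-base stretches are shared. AI427809 had 10.8 and 8.95 FPKM in MK-8931 and 9.97 and 12.7 FPKM in control. Only 11 of the 293 lincRNAs averaged above 10 FPKM and 182 averaged under 1 FPKM. Their median was 0.680 FPKM, beside 5.68 FPKM for the 12221 tested protein-coding genes.

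Control replicate 2 was the lowest of the 4 libraries for 95 tested lincRNAs (33.5%), beside 30.9% of all genes tested. Among the 171 lincRNAs averaging at least 1 CPM, the median log2 ratio of control replicate 2 to control replicate 1 was -0.12, and that of MK-8931 replicate 2 to MK-8931 replicate 1 was -0.11. Over the 12403 genes at that level the medians were 0.00 between the controls and 0.01 between the MK-8931 libraries. Among other non-coding classes, antisense, TEC, sense-intronic, processed-transcript and mitochondrial ribosomal RNA genes were also lowest in control replicate 2. Ribosomal RNA genes other than the mitochondrial ones were not. Genes marked as to be experimentally tested (TEC) took 0.0961% and 0.0700% of counts in MK-8931, against 0.0957% and 0.0496% in control. Sense-intronic RNAs took 0.0111% and 0.00762% in MK-8931, against 0.0113% and 0.00573% in control. Mitochondrial ribosomal RNA took 0.272% and 0.328% in MK-8931, against 0.206% and 0.192% in control. The other ribosomal RNA genes took 0.263% and 0.289% in MK-8931, against 0.435% and 0.353% in control, with MK-8931 replicate 1 lowest. The relation of these classes to the lincRNA levels was not tested.

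LincRNAs with a known role were gathered in lists by symbol. The single call among them was Mirt1, which stood in the list of miRNA hosts although no annotated miRNA hairpin lies in its body. None of the 2 nuclear-body and 3 X chromosome members passed. Beside Xist, Ftx, an activator of Xist in mouse, had 6.67 and 3.64 CPM in MK-8931 against 5.82 and 4.45 CPM in control, and Jpx, another activator, had 0.718 and 0.598 CPM in MK-8931 against 1.45 and 0.613 CPM in control. The groups overlapped in both.

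None of the 4 snoRNA hosts tested passed. Snhg12 had 15.5 and 14.8 CPM in MK-8931 against 19.4 and 15.9 CPM in control, and Snhg6 had 8.21 and 6.96 CPM in MK-8931 against 8.18 and 10.9 CPM in control. Both MK-8931 values of Snhg12 lay below both controls, and the groups of Snhg6 overlapped.

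The miRNA hosts included Mir17hg, which carries the miR-17-92 cluster of growth-promoting miRNAs, and Mir142hg, whose miR-142 is typical of blood cells. Mature miRNAs of both hosts are printed from RefSeq, with the seed (bases 2 to 8, which pair with targets) in capitals. The first pair shares one seed and the second pair shares another.
mmu-miR-17-5p: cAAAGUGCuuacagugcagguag
mmu-miR-20a-5p: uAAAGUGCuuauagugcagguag
mmu-miR-19a-3p: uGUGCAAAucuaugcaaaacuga
mmu-miR-19b-3p: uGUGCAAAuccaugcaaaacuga
mmu-miR-142a-5p: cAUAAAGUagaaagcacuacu
mmu-miR-142a-3p: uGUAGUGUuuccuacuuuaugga
These libraries measured the host transcripts and not the mature miRNAs. Mir17hg (chr14:115042879-115046727, plus strand) had 19 and 18 counts in MK-8931 against 29 and 43 counts in control, with both MK-8931 values below both controls, and it did not pass the threshold. Mir142hg (chr11:87755577-87757270, plus strand) had 39 and 67 counts in MK-8931 against 57 and 50 counts in control, and its groups overlapped. In all, 11 lincRNAs held an annotated miRNA hairpin on their own strand, among them H19 with miR-675, Meg3 with miR-770, 4833445I07Rik with miR-191 and miR-425, and 6720427I07Rik with let-7d. None of these named hosts passed.

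H19 and Meg3 are expressed from the maternal copy alone. H19 had 1.80 and 1.69 CPM in MK-8931 against 2.10 and 1.33 CPM in control, and Meg3 had 2.36 and 1.85 CPM in MK-8931 against 4.79 and 0.818 CPM in control. In Meg3 the highest and the lowest library were again the controls. Of the 5 members tied to growth and p53, none passed. Pvt1, the neighbour of Myc, had 10.3 and 9.19 CPM in MK-8931 against 16.5 and 9.66 CPM in control. Trp53cor1 (lincRNA-p21), a p53 target beside Cdkn1a, had 12 and 13 counts in MK-8931 against 5 and 6 counts in control. It met the count rule through the MK-8931 libraries alone, so its groups had to differ, and it did not pass. Lncpint, another p53 target, had 5.69 and 4.4 CPM in MK-8931 against 11.2 and 3.63 CPM in control.

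None of the 5 members listed for myeloid cells and inflammation passed. Mirt1 was not placed in that list. Gm14005, known as Morrbid, which in mouse limits the death factor gene Bcl2l11 in short-lived myeloid cells, had 5.49 and 7.61 CPM in MK-8931 against 7.43 and 9.04 CPM in control. AW112010, an interferon-induced transcript in mouse, had 5.54 and 7.50 CPM in MK-8931 against 6.95 and 8.18 CPM in control. Both overlapped between groups. A930007I19Rik had 145 and 101 counts in MK-8931 against 71 and 75 counts in control, with both MK-8931 libraries higher and no call. Ptgs2os2 (lincRNA-Cox2) had 12 and 22 counts in MK-8931 against 2 and 27 counts in control, so its lowest and its highest value were both controls. In the list for brain cells, Meg3 and Gm26917 were the 2 members, and Miat, Mirg, Pantr1 and Rmst fell under the count rule. A place in that list does not show that brain cells were the source here.

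Ptgs2os2 lies 50816 bases from Ptgs2, the gene of cyclooxygenase-2, and Ptgs2 itself rose. Ptgs2 had 3662 and 3497 counts in MK-8931 against 1059 and 1249 counts in control (log2 fold change 1.65, SE 0.13, adjusted p = 8.40e-04 in edgeR's test). The log2 fold change of Ptgs2os2 was 0.27 (adjusted p = 0.965). A similar case was Gm34643, with 6 and 6 counts in MK-8931 against 14 and 17 counts in control (log2 fold change -1.34, adjusted p = 0.679). It met the count rule through the controls alone. Its neighbour Acod1, which makes the antimicrobial metabolite itaconate in macrophages, lies 22520 bases away and had 1149 and 1349 counts in MK-8931 against 92 and 152 counts in control (log2 fold change 3.37, SE 0.24, adjusted p = 5.74e-04). These were the 2 lincRNAs whose nearest protein-coding gene was called, among 230 tested pairs (0.870%, beside 0.998% of all genes).

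Across those 230 pairs the lincRNA and its nearest protein-coding gene shared a direction about as often as not. Both had the same sign in 121 pairs (52.6%), with a Spearman rho of 0.03 across pairs, all measured in the same 4 libraries. Of 59 overlapping pairs, 28 had the same sign (rho 0.02). Of 80 pairs within 5 kb, 43 had the same sign (rho 0.06), and of 91 pairs farther apart, 50 did (rho -0.01). No pair had both genes called. With DESeq2, with no filter on low counts and with the replicate block, 1 pair did, 4833407H14Rik and Dusp5.

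**Figure D5:**
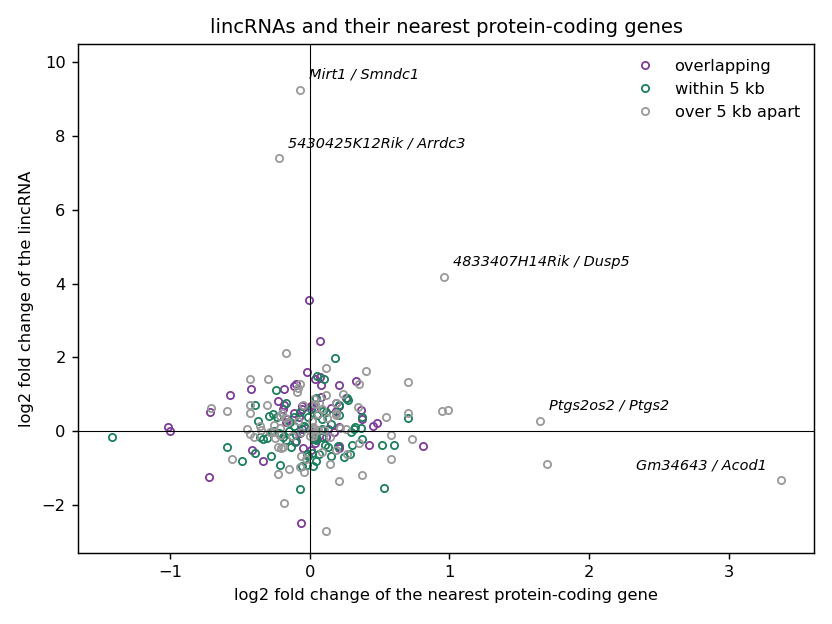
Fitted log2 fold change (MK-8931 over control) of each tested lincRNA against that of its nearest protein-coding gene, for 230 pairs, coloured by the distance between the gene bodies. The points form a cloud around 0 with no slope. Mirt1, 5430425K12Rik and 4833407H14Rik stand apart upward, and the neighbours Ptgs2 and Acod1 stand apart to the right.

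By position, many of these genes were close to a protein-coding gene despite the name of the class. Of the 293, 81 overlapped the body of one, 65 on the opposite strand and 16 on the same strand. Another 87 lay within 5 kb, 73 lay at 5 to 50 kb and 52 lay farther. Among those that did not overlap, 66 were divergent from their neighbour, 54 followed it and 47 preceded it on the same strand, and 45 converged on it. Of these genes, 40 had 1 exon, 164 had 2 or 3 and 89 had at least 4. The median length in the file was 2223 bases, beside 4418 for tested protein-coding genes. That length is not the span of the gene body: for Pvt1 it was 6996 bases, the same as its exonic bases.

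Some counts may not belong to one gene alone. Of the 293 lincRNAs, 104 shared exonic bases with another gene, and 11 shared more than 50% of them. By sequence, 134 had no 50-base stretch in common with transcripts of other genes, and 12 had more than 50% in common, among them Gm10076, Gm36161 and Gm7292. RefSeq listed 155 of the 293 as lncRNA, 9 as protein-coding and 2 as pseudogenes of some kind, and 127 were not matched by symbol to the RefSeq gene table. GENCODE M21 still gave lincRNA as the biotype for 286.

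At 10 counts or more, 166 lincRNAs were seen in all 4 libraries and 58 in 3. Another 38 reached it in 1 library of each group, 18 in both MK-8931 libraries and neither control, and 13 in both controls and neither MK-8931 library. The last 2 sets met the rule through one group, so their counts had to differ. Just inside the rule stood Gm26824, with 10 and 1 counts in MK-8931 and 11 and 0 counts in control, and Gm26848, with 3 and 10 counts in MK-8931 and 13 and 0 counts in control. Just outside stood Gm8013, with 9 and 6 counts in MK-8931 and 8 and 22 counts in control, and Gm30246, with 9 and 2 counts in MK-8931 and 7 and 23 counts in control. The second-highest count was 10 for 15 lincRNAs and 9 for 18. The 9 members with too few counts to test were C130071C03Rik, Gm26660, AC122487.1, F630042J09Rik, Gm17745, Gm38171, Gm38843, Gm26860 and Gm26824, none of which exceeded 20 counts in any library.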

How the data were processed

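RNA of 4 libraries was sequenced, 2 labelled MK-8931 and 2 labelled control in the titles. Per the file headers, the authors deposited a raw count for each gene and library and an FPKM value made from it. The submitters' processing notes name CASAVA and mm9. Coordinates in the table are those of GRCm38, since 98.1% of 54495 gene identifiers have the same position in GENCODE M21. Aligner, counting tool and strand setting: not given in the sources used here. The authors' deposited log2 fold changes and p-values name no test.

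Counts were tested with edgeR 4.0.16 in R 4.3.3 (TMM, filterByExpr with a minimum count of 10, robust quasi-likelihood test, 2 groups, no covariate, two-sided). P-values of the 13932 genes tested were adjusted together by the Benjamini-Hochberg method, and an adjusted p under 0.05 was called. The procedure was tested on simulated data. Alternatives were DESeq2 1.42.0, limma-voom 3.58.1, other scalings and filters, other member rules, a replicate block and leaving out each library. A further set of 4 per-sample columns was not used. Shared sequence was measured as the share of 50-base stretches found in GENCODE M21 transcripts of other genes on either strand. SE is the standard error of the log2 fold change. Floors and bounds cover counting error only.

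Genes named are those past the threshold, the 10 highest by CPM and by FPKM, the 2 most abundant of each role list, the 5 smallest p in each direction short of the threshold, and those at the edge of the count rule. Further members of the role lists, neighbours that were called and members holding miRNAs were named after their values were seen. The members and lists were chosen with earlier results of these data known.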

Additional observations from a re-analysis of the deposited data

How the results depend on the processing

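Mirt1 was called under every setting in which it was a member, and the count of lincRNAs called lower in MK-8931 was 0 under every setting run. The count of lincRNAs higher in MK-8931, 2 as reported, was 5 with no filter on low counts (542 genes called in all, against 139), 5 with the replicate block (743 in all), 3 with DESeq2 (362 in all) and 1 with limma-voom, was 0 among members with 10 counts in all 4 libraries, which removes both called genes by construction, and was 1 with Mirt1 and 4833407H14Rik summed, which merges the calls. Leaving out each library gave 1 to 12, with 12 without control replicate 1 (763 genes called in all, against 95 to 221 without each of the other libraries). The cause was not tested. Each fit with a library left out has 1 library in that group, so the spread within that group is not measured. The median log2 fold change, 0.0869 as reported, was 0.107 with library size alone, 0.0502 with no filter, 0.0723 with limma-voom, 0.0759 with the replicate block, 0.0255 with 10 counts in all 4 libraries, 0.0514 with 20 counts in at least 2, 0.0984 with a mean count of at least 10 and 0.0984 without members RefSeq lists as protein-coding or pseudogenes, the last chosen after the data were seen like the summed pair, and it ranged from -0.0352 to 0.223 over the libraries left out. The rule gave 438 members at a minimum of 5, 185 at a minimum of 20 and 166 at 10 counts in all 4 libraries. The count of lincRNAs called together with their neighbour, 0 as reported, was 1 with no filter, DESeq2 and the replicate block, and 0 to 1 over the libraries left out. The fold change of Malat1 reversed to -0.46 without control replicate 2 and to -0.26 without MK-8931 replicate 1, and that of Xist to -0.20 without control replicate 2, and without control replicate 1 both were 0.98. The replicate numbers are not said to pair libraries, and the deviations of same-numbered libraries correlated at 0.20 over only 2 pairs, so the block result is given as a value only. The median lincRNA level was 1.26 CPM, and what difference could be detected at that level was not measured.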
